A study of Arabidopsis thaliana with 6 samples.

Results

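The xyloglucan endotransglucosylase/hydrolases (XTH genes) were followed in sorted lateral root cap cells of Arabidopsis thaliana. The members are the genes whose only symbol in the platform annotation is XTH followed by a number, each read by 1 probe set. There are 9 of them among 13350 genes with a single symbol: XTH16, XTH18, XTH19, XTH20, XTH21, XTH26, XTH29, XTH32 and XTH33. RefSeq (assembly TAIR10.1) lists 33 XTH loci. One more of these, XTH27, carries the symbol EXGT-A3 on the platform and is given for comparison, and the other 23 were not analysed here.

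RNA was hybridised to 6 Affymetrix ATH1 arrays in 3 groups of 2 biological replicates. The groups were untreated seedlings, seedlings after 1 h of dexamethasone and seedlings after 4 h of dexamethasone, all of ecotype C24 and grown for 5 days. Every plant, the untreated ones included, carried J2632-UAS::ARR1ΔDDK-GR, and the fluorescent cells marked by the J2632 line were sorted. J2632 is an enhancer trap line active in the lateral root cap, the cell layers that sheathe the growing root tip. Here it drives ARR1, which switches on cytokinin-responsive genes, without its regulatory domain and joined to the glucocorticoid receptor, so that dexamethasone lets the protein enter the nucleus. No group lacked the construct, so an effect of dexamethasone, of the hours passed or of the sort cannot be told apart from an effect of ARR1. ARR1 itself had no named probe set with which to check the construct, and the treatment label names protoplasted cells or tissue without choosing.

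Xyloglucan is a branched polysaccharide that binds and links cellulose in the primary wall of most flowering plants. XTH enzymes are secreted proteins that cut a xyloglucan chain and join the cut end to another chain, and a few members hydrolyse it instead. They are counted among the wall-remodelling enzymes of growing root cells. Lateral root cap cells expand and are later shed or die, and ARR1 acts in the root tip in the response to cytokinin.

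An array's background was taken as the 95th percentile of 27 bacterial control probe sets, and 58.1% to 67.8% of the 22746 probe sets were brighter than it, depending on the array. That background lay between 29.1 and 47.1 in the deposited linear intensity. Differences are given on the scale of log2(intensity + 16) after quantile normalization, which understates the change of dim genes. Tests are those of limma over all 6 arrays, with p adjusted over the 22746 probe sets and 0.05 as the threshold. Genes are not ranked by the intensities of their probe sets, and signals are called strong or weak against the background. Intensities are summed for marker genes only, where the brighter probe set weighs most.

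In the cells sampled, the family was split between genes with a signal on all 6 arrays and genes without one. XTH18 and XTH19 gave strong signals on all 6 arrays and XTH33 a weak one on all 6. XTH16, XTH20 and XTH29 exceeded the background on 1 or 2 arrays, and XTH21, XTH26 and XTH32 on none. Over all probe sets, 51.2% exceeded the background on all 6 arrays and 19.1% on none. Among members with a signal on all 6 arrays, XTH18 at 4 h and XTH33 at 1 h differed most from untreated cells. They were 2.01-fold and 1.73-fold higher in treated cells. The size for the dim XTH33 depended on the pseudocount, with a log2 difference of 0.98 for 1 and 0.49 for 64. None of the 9 genes passed the test in any contrast.

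Of the 9 genes, 6 had no steady signal, and the counts and medians below include them as fitted values only. At 1 h, 7 were higher and 2 lower than in untreated cells, with a median log2 difference of 0.18, beside -0.0024 over all probe sets, of which 49.6% were higher. That median is the value of XTH21, which, like XTH26 and XTH32, was below background in both groups. XTH18, XTH19 and XTH33, the members with a signal on all arrays, were all on the higher side. In limma 0 of the 9 passed, where 0% of all probe sets did. At an unadjusted p under 0.05 there were 2, XTH18 and XTH33, both higher; of all probe sets, 2.95% met that limit as higher and 2.83% as lower. Under 3 of the 14 alternatives XTH18 had an unadjusted p over 0.05 at 1 h, as did XTH33 under 1. In the contrast of 4 h with untreated cells, 5 were higher and 4 lower, with a median of 0.059, beside -0.0088 over all probe sets, of which 49% were higher. The median is again that of XTH21, and XTH16, XTH21, XTH26 and XTH32 were below background in both groups, while XTH18, XTH19 and XTH33 were on the higher side. Again 0 of the 9 passed, where 0.0044% of all probe sets did. At an unadjusted p under 0.05 there were 2, XTH18 and XTH19, both higher, where the shares were 4.91% of all probe sets as higher and 4.17% as lower. Under 8 of the 14 alternatives XTH19 had an unadjusted p over 0.05 at 4 h, as did XTH18 under 1. Comparing 4 h with 1 h, 4 were higher and 5 lower, with a median of -0.039, beside -0.0031 over all probe sets, of which 49.6% were higher. The median is that of XTH16, above background on 1 array, and XTH21, XTH26, XTH29 and XTH32 were below background in both groups. XTH18 and XTH19 were on the higher side and XTH33 on the lower. Here 0 of the 9 passed, where 0.022% of all probe sets did, and 0 had an unadjusted p under 0.05, against 4.68% of all probe sets as higher and 4.56% as lower. The contrasts at 1 h and at 4 h share the untreated arrays, and each is given by its own values.

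XTH18 (AT4G30280, probe set 253628_at) is one of a group of root-expressed XTH genes that also holds XTH17, XTH19 and XTH20. Its intensity was 939.6 and 1137 on the untreated arrays, 1554 and 1934 at 1 h, and 2389 and 1780.0 at 4 h. Both treated pairs lay above the untreated pair, while the 1 h and 4 h arrays overlapped. On the normalized log2 scale the level was 10.79 ± 0.22 at 1 h and 10.01 ± 0.22 in untreated cells (SD, n = 2 each). The log2 difference of 0.78 (SE 0.26, 95% interval 0.14 to 1.41) corresponds to 1.71-fold, with a limma adjusted p of 0.810.

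At 4 h the level of XTH18 was 11.02 ± 0.28, against the same untreated level. The log2 difference was 1.00 (SE 0.26, 95% interval 0.37 to 1.64), which is 2.01-fold with an interval from 1.29 to 3.12, and the limma adjusted p was 0.356. Of all probe sets, 2.17% had a smaller p in this contrast, and 98.0% had a smaller difference. Between 4 h and 1 h XTH18 differed by 0.23 (95% interval -0.41 to 0.86, limma adjusted p = 0.833), less than the gap of 0.39 between the 4 h replicates. That difference was 0.033 without 4 h replicate 1 and 0.42 without 4 h replicate 2, and 0.075 and 0.39 without 1 h replicates 1 and 2. In bulk RNA of sorted cells, fewer cells of a type and less RNA per cell cannot be told apart, and this holds for each gene below.

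XTH19 (AT4G30290, probe set 253608_at), known for transferase activity in growing root tissue, measured 3134 and 3902 in untreated cells, 4861 and 4710 at 1 h, and 5647 and 5346 at 4 h. Every 1 h array lay above both untreated arrays and below both 4 h arrays. Such an order without overlap was found for 2.07% of all probe sets and for 2.97% of those above background on all arrays. XTH19 was the only one of the 9 members with it. The 2 untreated arrays were 0.45 apart on the log2 scale, the 1 h arrays 0.0096 and the 4 h arrays 0.10.

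The log2 level of XTH19 was 12.24 ± 0.0068 at 1 h and 11.79 ± 0.32 in untreated cells (SD, n = 2 each), a difference of 0.45 (SE 0.24, 95% interval -0.14 to 1.04, limma adjusted p = 0.905). At 4 h it was 12.42 ± 0.071, a difference of 0.63 from untreated (SE 0.24, 95% interval 0.043 to 1.22, limma adjusted p = 0.518), or 1.55-fold. The step between 4 h and 1 h was 0.18 (95% interval -0.40 to 0.77, limma adjusted p = 0.857). The size of the XTH19 differences depended on which untreated array was used. Without untreated replicate 1 they were 0.22 at 1 h and 0.40 at 4 h, and without untreated replicate 2 they were 0.68 and 0.87.

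**Figure D1:**
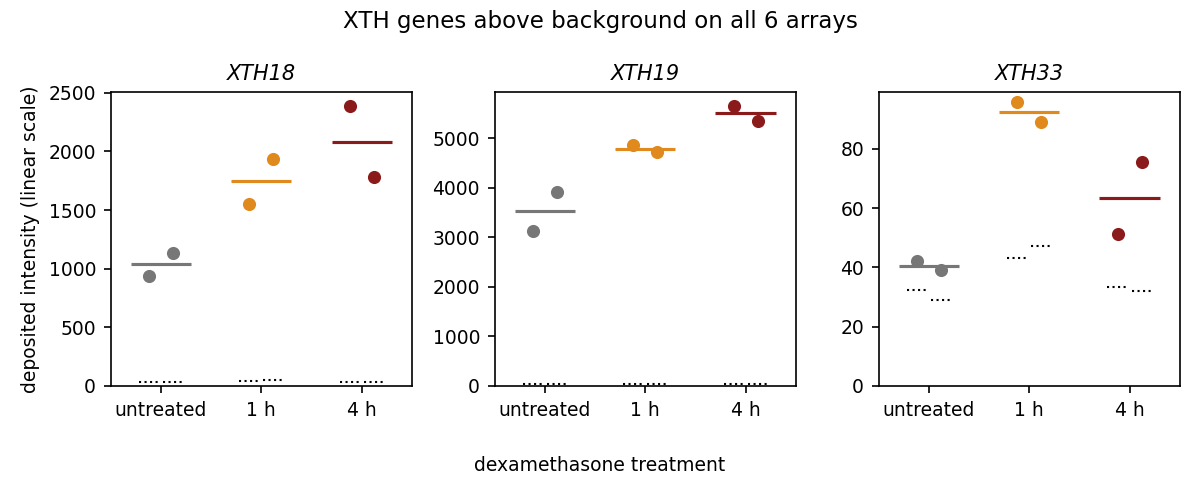
Deposited intensity (vertical axis, linear, from 0) of XTH18, XTH19 and XTH33 on each of the 6 arrays, by treatment group; points are arrays, horizontal bars the mean of 2 arrays, and dotted marks the background of each array. XTH18 and XTH19 lie far above the background with both treated pairs above the untreated pair, and XTH33 is highest at 1 h (95.8 and 89.1).

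XTH33 (AT1G10550, probe set 263207_at) encodes a member with a predicted membrane anchor. Its intensity was 42.3 and 39.0 in untreated cells, 95.8 and 89.1 at 1 h, and 51.1 and 75.6 at 4 h. In intensity the 3 groups did not overlap, with untreated lowest, 4 h between and 1 h highest. The signal was between 1.30 and 2.37 times the background of its array, so the gene was detected with little margin. That multiple was 2.22 and 1.89 at 1 h and 1.53 and 2.37 at 4 h, so on this measure the 1 h and 4 h arrays overlapped. The background was itself higher at 1 h, at 43.2 and 47.1, against 32.5 and 29.1 in untreated cells.

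At 1 h the log2 level of XTH33 was 6.71 ± 0.047, against 5.92 ± 0.042 in untreated cells (SD, n = 2 each). The difference of 0.79 (SE 0.24, 95% interval 0.22 to 1.37) is 1.73-fold, with a limma adjusted p of 0.782. At 4 h the level was 6.30 ± 0.29, a difference of 0.38 from untreated (95% interval -0.20 to 0.95, limma adjusted p = 0.714) and of -0.41 from 1 h (95% interval -0.99 to 0.16, limma adjusted p = 0.650). The 1 h difference ranged from 0.49 with a pseudocount of 64 to 0.98 with a pseudocount of 1. The 4 h difference was 0.17 without 4 h replicate 2 and 0.58 without 4 h replicate 1, and the difference between 4 h and 1 h was then -0.62 and -0.20 in the same order.

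The other 6 members lay at or near the background, with intensities between 0.90 and 50.8 over all arrays. XTH16 measured 4.4 and 24.0 in untreated cells, 50.8 and 23.4 at 1 h, and 29.5 and 31.8 at 4 h. Only 1 h replicate 1 exceeded its background, so no fold is given. XTH20, a relative of XTH18 and XTH19 known from vascular tissue of the root, measured 33.2 and 17.8 untreated, 41.0 and 31.2 at 1 h, and 11.5 and 34.7 at 4 h. It exceeded the background on untreated replicate 1 and 4 h replicate 2, and its groups overlapped in every contrast.

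XTH29, a member reported to respond to drought and heat, measured 42.2 and 28.5 in untreated cells, 31.0 and 4.1 at 1 h, and 12.9 and 23.1 at 4 h. Only untreated replicate 1 exceeded the background. Against 4 h the bound was at least 1.12-fold in favour of untreated cells, from an untreated mean of which only 1 array was above background (limma adjusted p = 0.671). Against 1 h, whose background was higher, no fold is given.

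XTH32, a member of the small branch to which hydrolysis is ascribed, measured 22.8 and 23.8 untreated, 4.4 and 23.0 at 1 h, and 28.2 and 2.0 at 4 h. XTH26, a gene known from root hairs, stayed between 1.3 and 4.3, and XTH21, a root-expressed gene, between 0.90 and 4.9. None of these 3 exceeded the background on any array, so their transcripts were not detected and no difference can be stated. A signal below background does not show that a transcript was absent.

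**Figure D2:**
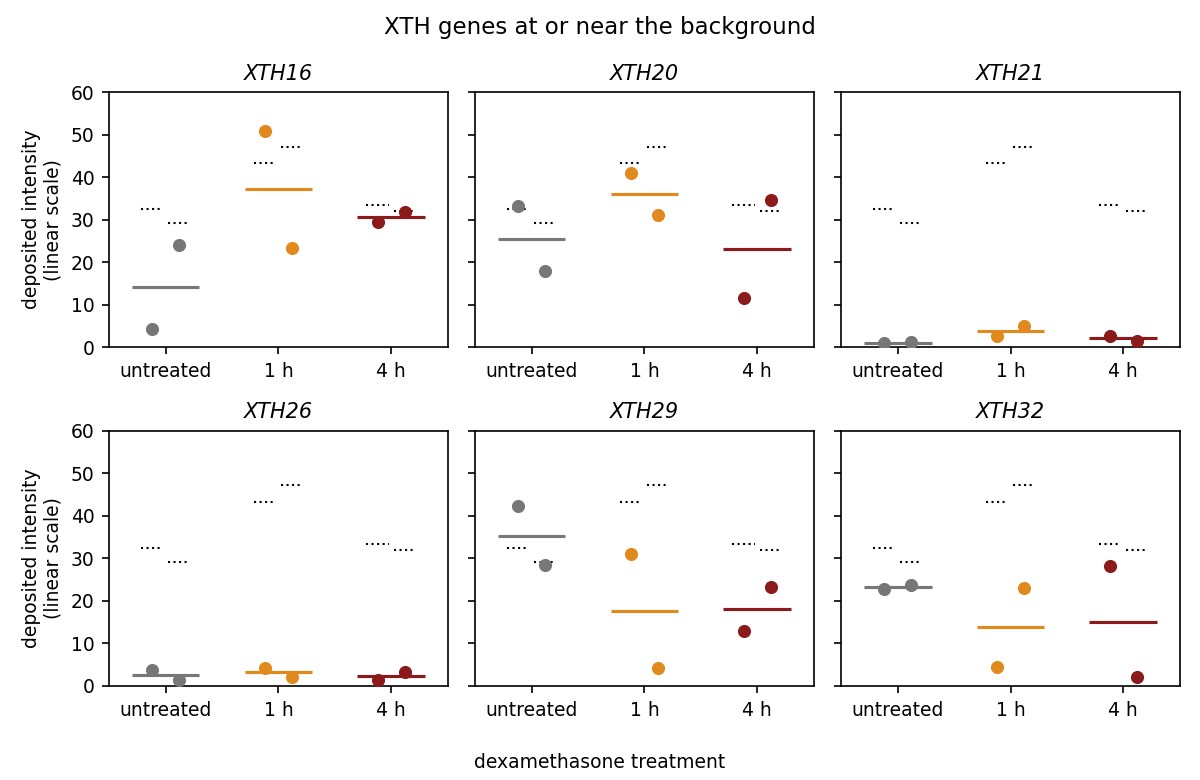
Deposited intensity (vertical axis, linear, from 0) of the 6 XTH genes at or near the background, by treatment group; points are arrays, horizontal bars the mean of 2 arrays, and dotted marks the background of each array. Only 4 of the 36 points lie above their dotted mark: 1 of XTH16, 2 of XTH20 and 1 of XTH29.

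EXGT-A3 (XTH27, AT2G01850, probe set 263598_at), known for a role in the development of water-conducting cells, measured 669 and 394 in untreated cells, 362 and 458 at 1 h, and 412 and 458 at 4 h. It was detected on all 6 arrays, and its groups overlapped in every contrast, with untreated replicate 1 the highest array and 1 h replicate 1 the lowest. The log2 differences were -0.28 at 1 h against untreated (95% interval -1.03 to 0.47, limma adjusted p = 0.949), -0.19 at 4 h (95% interval -0.94 to 0.56, limma adjusted p = 0.910) and 0.093 at 4 h against 1 h (95% interval -0.66 to 0.84, limma adjusted p = 0.953). Without untreated replicate 1 the first 2 were 0.10 and 0.19, so their sign rested on that array.

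**Figure D3:**
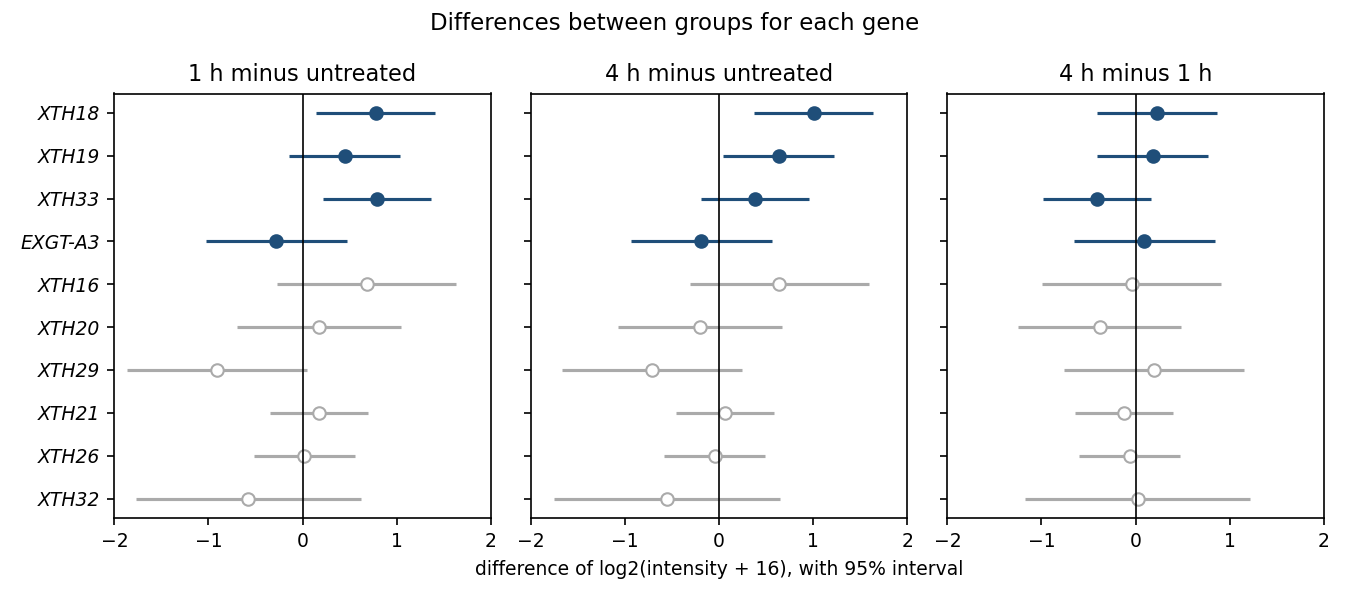
Log2 differences between groups (horizontal axis, log2 of intensity + 16) with 95% intervals from limma for the 9 XTH genes and EXGT-A3; filled symbols are genes above background on all 6 arrays, open symbols the others. Intervals that leave out 0 are those of XTH18 and XTH33 at 1 h and of XTH18 and XTH19 at 4 h, before adjustment over all probe sets.

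Separation of the arrays was also counted over the family. At 1 h against untreated, the groups did not overlap for 4 members that were higher (XTH18, XTH19, XTH21 and XTH33) and 2 that were lower (XTH29 and XTH32). Of all probe sets, 15.5% were higher and 15.7% lower without overlap; of those above background on all arrays, where XTH18, XTH19 and XTH33 belong, 14.7% and 14.9%. XTH21 and XTH32 lay below background on all of these 4 arrays and XTH29 on 3 of them, and the groups of XTH29 and XTH32, both members counted as lower, overlapped in the deposited intensities. With 4 h set against untreated there were 4 higher (XTH16, XTH18, XTH19 and XTH33) and 1 lower (XTH29). Of these, XTH16 lay below background on all 4 arrays of the contrast and XTH29 on 3 of them. The shares for higher and lower were 20% and 20.6% of all probe sets, and 22% and 24.3% of those above background on all arrays. Between 4 h and 1 h there was 1 higher (XTH19) and 1 lower (XTH33), where the shares were 21.8% and 22.1% of all probe sets, and 25.3% and 26.3% of those above background. With 2 arrays a group such separation is common, as these shares show.

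**Figure D4:**
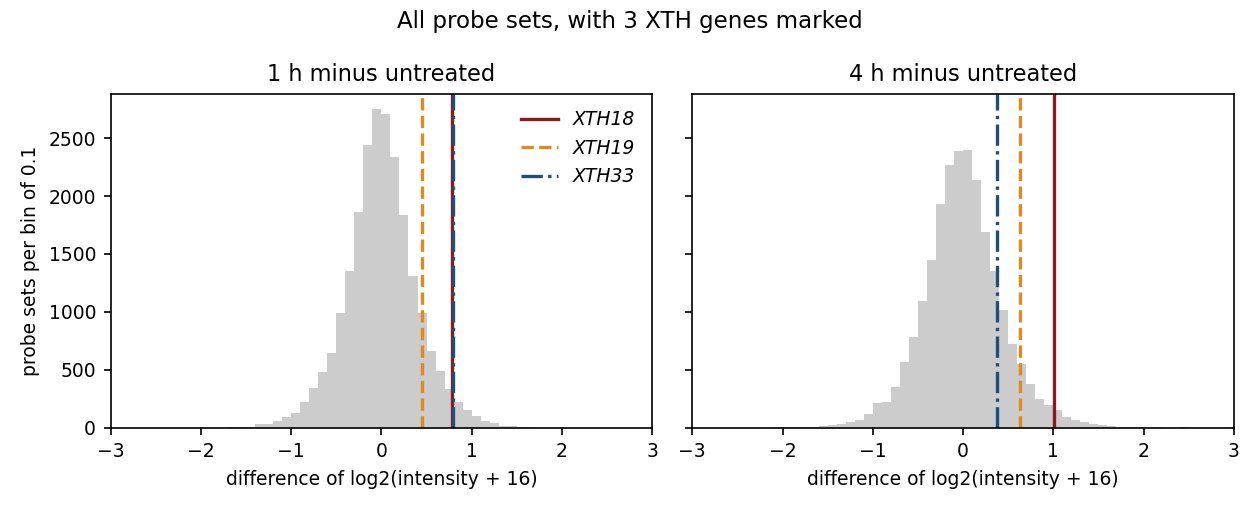
Number of probe sets (vertical axis) by log2 difference (horizontal axis, bins of 0.1, values beyond the axis counted in the end bins) for 1 h and 4 h against untreated over 22746 probe sets, with XTH18, XTH19 and XTH33 as vertical lines. At 4 h the lines of XTH18 (1.00) and XTH19 (0.63) lie to the right of 98.0% and 92.7% of the probe sets, and at 1 h XTH18 (0.78) and XTH33 (0.79) lie close together.

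XTH18 and XTH19 are next to each other on chromosome 4, with no protein-coding locus between them in RefSeq (assembly TAIR10.1), and XTH24 follows on the side of XTH18. Whether their probe sets respond to each other's transcripts was not tested. Of the 10 protein-coding loci nearest to the pair, 5 on each side, 4 had a named probe set. AT4G30310, the only one of these above background on all arrays, differed by -0.25 (SE 0.22) at 4 h and by -0.13 (SE 0.22) at 1 h from untreated. AT4G30330, above background on 5 arrays, differed by 0.33 (SE 0.23) and -0.29 (SE 0.23) in the same contrasts. AT4G30320 and AT4G30230 exceeded the background on 3 and 2 arrays. AT4G30320 differed by -0.085 (SE 0.42) at 4 h and by -0.84 (SE 0.42) at 1 h from untreated. AT4G30230 differed by 0.78 (SE 0.47) and -0.30 (SE 0.47) in the same contrasts. None of the 4 was higher than untreated at both times, where 49.6% of all probe sets were higher at 1 h and 49% at 4 h. The share of all probe sets higher at both times was not counted, so the 4 loci are a description only.

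Likeness of profile was measured as the root mean square difference between 2 genes' log2 levels over the 6 arrays, each relative to its own mean. For XTH18 and XTH19 it was 0.21. The genes compared were those with a single platform symbol and a signal above background on all 6 arrays. XTH19 was the 9th closest of these 6294 genes to XTH18, whose median distance to them was 0.52. Seen from XTH19, whose profile is flatter, XTH18 was the 353rd closest of 6294, with a median distance of 0.38. The genes most like XTH18 were AT2G36220 (0.17), AT5G44060 (0.17) and AT2G37990 (0.18). Those most like XTH19 were AT2G43320 (0.087), AT3G14890 (0.088) and AT4G28310 (0.091). These distances are descriptions over 6 arrays, which all genes share together with their normalization.

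Other genes of xyloglucan and wall metabolism could be followed only in part: of 31 listed, 7 had a named probe set. In limma 0 of the 7 passed in any contrast. At 1 h against untreated, 0 were higher and 1 lower at an unadjusted p under 0.05, with a median log2 difference of 0.12, beside 2.95% higher, 2.83% lower and a median of -0.0024 over all probe sets. The contrast of 4 h with untreated gave 0 in either direction, with a median of 0.27, beside 4.91%, 4.17% and -0.0088 over all probe sets. That of 4 h with 1 h gave 1 higher and 0 lower, with a median of 0.030, beside 4.68%, 4.56% and -0.0031. CSLC4, which makes the glucan backbone of xyloglucan, measured 2903 and 2891 at 4 h, against 2271 and 2506 in untreated cells. Its groups did not overlap, as was so on the higher side for 20% of all probe sets in this contrast. The log2 difference was 0.27 (SE 0.22, limma adjusted p = 0.787), with -0.011 (SE 0.22) at 1 h. COB, a wall protein needed for oriented cellulose deposition, differed by 0.015 (SE 0.23) at 4 h and by 0.12 (SE 0.23) at 1 h from untreated cells.

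Of 10 listed alpha-expansins, which loosen walls without cutting xyloglucan, 5 could be followed. EXPA4 gave the single member with an unadjusted p under 0.05: it measured 69.6 and 110.3 at 1 h, against 182 and 140.5 in untreated cells, and 256 and 250.4 at 4 h. At 1 h EXPA4 was thus below and XTH18 and XTH33 above the untreated arrays. The alpha-expansins did not share that direction: 4 of the 5 were higher at 1 h, beside 49.6% of all probe sets. Of these, EXPA7 was below background in both groups. EXPA8, above background on all 6 arrays, was 0.37 higher without overlap (SE 0.26, limma adjusted p = 0.924). EXPA15 was 0.57 higher (SE 0.41, limma adjusted p = 0.928), with overlap after normalization. In that contrast 15.7% of all probe sets were lower and 15.5% higher without overlap. The log2 difference of EXPA4 was -0.84 at 1 h (SE 0.30, limma adjusted p = 0.822) and 1.45 at 4 h against 1 h (SE 0.30, limma adjusted p = 0.311). From untreated cells the 4 h levels differed by 0.60 (SE 0.30, limma adjusted p = 0.622) for EXPA4 and by 0.60 (SE 0.41, limma adjusted p = 0.738) for EXPA15. No listed gene of xyloglucan trimming or cellulase had a named probe set.

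The label of the sorted cells was checked against root cap genes. Of 8 listed, 2 had a named probe set, AT1G65570 (a root cap polygalacturonase gene) and scpl48 (a carboxypeptidase-like gene), and both exceeded the background on all 6 arrays. The defining regulator SMB was not analysed here. The summed intensity of these genes lay between 4494 and 4612 in untreated cells, between 5471 and 6705 at 1 h, and between 3358 and 3395 at 4 h. The sum was highest at 1 h, as was XTH33, and lowest at 4 h, but scpl48 makes up most of it. AT1G65570 differed from untreated cells by 1.15 at 1 h (SE 0.26, limma adjusted p = 0.759) and by 0.27 at 4 h (SE 0.26, limma adjusted p = 0.823). For scpl48 the differences were 0.23 at 1 h (SE 0.24, limma adjusted p = 0.945) and -0.62 at 4 h (SE 0.24, limma adjusted p = 0.518), so the 2 genes had opposite signs at 4 h. The part of these shifts in the XTH values was not tested.

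Markers of other root cells were near the background: 2 of 6 root hair and epidermis genes summed to between 20.6 and 83.6 over all arrays, with EXPA18 above background on 2 arrays and EXPA7 on none. The cortex gene AT1G62500 and the quiescent centre gene AGL42 exceeded the background on no array. GSO1 of the endodermis, the 1 of 3 that could be followed, measured between 25.6 and 53.0 and exceeded the background on 3 arrays. For the stele (0 of 4 listed) and the columella (0 of 1 listed) no marker could be followed, and XTH18 and XTH19 are themselves known from several root cell types. The ratio of 3' to 5' signal of GAPDH, a sign of RNA quality, was 3.11 and 3.41 in untreated cells, 4.65 and 3.26 at 1 h, and 3.15 and 4.32 at 4 h. These ranges overlapped between groups. Untreated replicate 1, where XTH18 and XTH19 were lowest, had the lowest ratio. The next lowest, 3.15, was that of 4 h replicate 1, where both genes were highest. A link between the ratio and these genes was not tested.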

How the data were processed

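The deposited table holds 1 linear intensity per probe set and array, 22810 rows of which 64 are controls. Per the labels, total RNA was labelled with biotin in a two-cycle protocol; the software that summarised the probes is not given in the sources used here. With 2% of values trimmed from either end, each deposited intensity column averaged 250.03, a common scale. Genes were named through the platform annotation and a RefSeq table of assembly TAIR10.1; all 9 XTH symbols matched their RefSeq symbol.

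Log2(intensity + 16) was quantile normalized because column medians spanned 0.215, above a limit of 0.1. limma 3.58.1 in R 4.3.3 fitted 1 mean per group to the 22746 other probe sets, with Benjamini-Hochberg adjustment. The fit was run on simulated data, with changes larger than any XTH difference found here. That run therefore cannot show whether changes of the sizes found here would pass. P-values are two-sided. Precision is limited by the number of arrays, 2 per group. A gene below background on both arrays of 1 group is given as a bound on the mean of the brighter group; where that was below 1, or both groups were below, no fold is given. All members were named, and for XTH18 and XTH19 the 3 nearest profiles. Of each list, members with an unadjusted p under 0.05 or else the largest differences were named. Other alpha-expansins at 1 h were added beside EXPA4. Members and lists were chosen with earlier results of these data known, so XTH18 and XTH19 at 4 h are not independent support for that pattern. Alternatives were other pseudocounts and scalings, a background filter, a replicate block, a signal-dependent prior variance, fits to 4 arrays and arrays left out.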

Additional observations from a re-analysis of the deposited data

How the results depend on the processing

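No XTH gene passed in any contrast under any of the 14 alternatives; the lowest adjusted p was 0.0853, for XTH18 at 4 h against untreated with a signal-dependent prior variance in limma. The signs of XTH18, XTH19 and XTH33 were kept in all contrasts, and 382 of 405 gene differences kept sign and side of the threshold. Medians of the 9 genes rest on dim members. At 1 h against untreated the median was 0.45 with a pseudocount of 1, 0.081 with 64, 0.34 on the values as deposited, 0.19 with columns centred on their median, 0.61 when only probe sets above background on 2 or more arrays were kept (4 XTH genes), and 0.16 to 0.27 with 1 array left out. That centring moved the median of all probe sets to -0.10 in this contrast. At 4 h against untreated it was 0.38 with a pseudocount of 1, 0.51 after the filter and 0.058 to 0.25 with 1 array left out; at 4 h against 1 h it was -0.26 with a pseudocount of 1 and -0.14 to 0.018 with 1 array left out. Except where a value or the filter shows it, the cause was not tested.

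Signs turned for weak or unsteady signals. XTH26 was -0.10 (1 h) and 0.023 (4 h against 1 h) with centred columns, and XTH32 at 4 h against 1 h was -0.26 with a pseudocount of 1 and -0.0018 as deposited. With 1 array left out, at 1 h against untreated EXGT-A3 ranged from -0.67 to 0.10, XTH20 from -0.10 to 0.45 and XTH26 from -0.080 to 0.12. At 4 h against untreated EXGT-A3 ranged from -0.57 to 0.19, XTH20 from -0.66 to 0.25, XTH26 from -0.14 to 0.055 and XTH32 from -1.22 to 0.11. At 4 h against 1 h EXGT-A3 ranged from -0.053 to 0.24, XTH16 from -0.35 to 0.27, XTH20 from -0.84 to 0.069, XTH26 from -0.14 to 0.018, XTH29 from -0.34 to 0.73 and XTH32 from -0.64 to 0.69.

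Over all probe sets, calls at 4 h against untreated (1 in the fit described) numbered 0 with a pseudocount of 1, 108 with 64, 8 after the filter, 0 with the replicate block, 123 with the signal-dependent prior variance, 0 with 4 arrays and 0 with any 1 array left out. At 4 h against 1 h (5) they numbered 0, 42 and 17 for the same first 3, 53 with that prior variance, 0 with 4 arrays and 0 with any array left out. Replicate numbers gave no clear pairing: the differences between replicates correlated across probe sets at 0.12 for 1 h and untreated, -0.019 for 4 h and untreated and -0.042 for 4 h and 1 h. With the replicate block 0 XTH genes passed, as without it, and the sizes were unchanged, with a limma adjusted p of 0.464 for XTH18 at 4 h against untreated. Of the 9 genes, 6 did not exceed the background on every array.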
